A study of Mus musculus with 8 samples.

Results

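The Trav genes are the variable (V) segments of the T cell receptor alpha chain. They were taken as every gene in the count table whose symbol starts with Trav, which gave 128 of 55573 gene IDs. All of them lie on the plus strand of chromosome 14 of the mouse build GRCm38, between positions 52427928 and 53977678. Total RNA came from naive CD8+ T cells of male C57BL/6 mice, obtained from spleen and lymph nodes by CD8a enrichment and sorting. The labels give 5 libraries the genotype Furin KO and 3 the genotype WT. Mice were 8 weeks old, except those behind replicate 1 of each genotype, which were 7 weeks old. The labels state neither how and in which cells Furin was removed nor whether libraries stem from separate mice, so the spread between libraries may be partly technical.

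Furin, the proprotein convertase named by the genotype, was at 56.97, 66.8 and 66.9 CPM (counts per 1000000 counts of the TMM-scaled library) in WT and 63.5, 86.4, 62.2, 58.0 and 76.7 CPM in Furin KO, in replicate order. The groups overlapped, at 63.6 ± 5.71 CPM (SD, n = 3) and 69.4 ± 11.8 CPM (n = 5), with an edgeR adjusted p of 0.9998. So Furin counts did not fall where the label says Furin KO. A count over the whole gene does not show whether a part of it was deleted, and without a known strand setting reads of the overlapping antisense gene Gm44851 cannot be told apart. Furin KO and WT below stand for the libraries so labelled.

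A T cell receptor alpha chain is assembled in the thymus, where the RAG recombinase joins one V segment to one joining (J) segment upstream of the constant gene Trac. The V segment encodes the leader, the loops CDR1 and CDR2 that mostly face the MHC molecule, and the start of CDR3, which mostly faces the peptide. A mature T cell transcribes the V segment it has joined, so the spread of reads over V segments in a population reflects how its repertoire is composed. In mice of the C57BL/6 strain part of the locus is present in repeated blocks, and the letters d and n in a symbol mark members of these blocks.

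The copies of one segment can be so alike that a short read fits several of them. The 120 coding bases of Trav14-1 and its copies that differ most, read from the GENCODE M21 transcripts at chr14:53554311-53554430 (Trav14-1), chr14:52855919-52856038 (Trav14d-1) and chr14:53166931-53167050 (Trav14n-1), show the first pattern. Capitals mark bases at which the copies are not all the same.
Trav14-1: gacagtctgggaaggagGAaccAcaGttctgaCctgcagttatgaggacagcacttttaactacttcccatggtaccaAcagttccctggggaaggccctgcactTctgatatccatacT
Trav14d-1: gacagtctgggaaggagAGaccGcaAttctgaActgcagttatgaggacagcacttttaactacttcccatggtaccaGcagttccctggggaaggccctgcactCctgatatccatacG
Trav14n-1: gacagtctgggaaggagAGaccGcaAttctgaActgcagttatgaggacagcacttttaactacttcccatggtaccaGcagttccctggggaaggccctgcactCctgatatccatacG
Here the d and n copies had no mismatch to each other over their 364 coding bases, and 16 mismatches each to Trav14-1. Trav14-1 had 884 counts over the 8 libraries, and Trav14d-1 and Trav14n-1 had 0.

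In the Trav6-6 group the matching pair was another one, as the same kind of window shows at chr14:53517069-53517188 (Trav6-6), chr14:52822062-52822181 (Trav6d-6) and chr14:53132840-53132959 (Trav6n-6).
Trav6-6: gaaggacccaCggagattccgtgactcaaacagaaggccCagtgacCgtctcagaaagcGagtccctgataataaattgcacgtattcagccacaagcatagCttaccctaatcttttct
Trav6d-6: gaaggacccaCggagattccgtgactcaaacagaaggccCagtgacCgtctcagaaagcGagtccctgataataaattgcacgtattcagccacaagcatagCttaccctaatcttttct
Trav6n-6: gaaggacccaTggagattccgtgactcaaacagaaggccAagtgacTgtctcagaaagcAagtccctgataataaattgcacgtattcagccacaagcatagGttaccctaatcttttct
Trav6-6 and Trav6d-6 had no mismatch over 344 coding bases and 0 counts each. Trav6n-6 had 9 mismatches to both and 290 counts. In both groups the copy with counts was the one whose sequence stood apart.

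The same held across the locus. For each member, the share of its 50-base stretches that occurs in no other gene's transcript on either strand was computed, called its own sequence below. Of the 42 members with no own sequence, 41 had 0 counts in all 8 libraries. The other one, Trav13n-3, had 25 counts, and its exons overlap those of Gm43650. Of the 53 members with more than 50% own sequence 46 had counts, and all 7 without were annotated pseudogenes. In all, 54 of the 128 members had 0 counts, 14 of the 20 annotated pseudogenes among them, and 40 of the 108 members annotated as V genes. A 0 of a member without own sequence is not read here as absence of usage, and all shares below are shares of the Trav counts as deposited. How reads that match several genes were treated is not given in the sources used here.

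**Figure D1:**
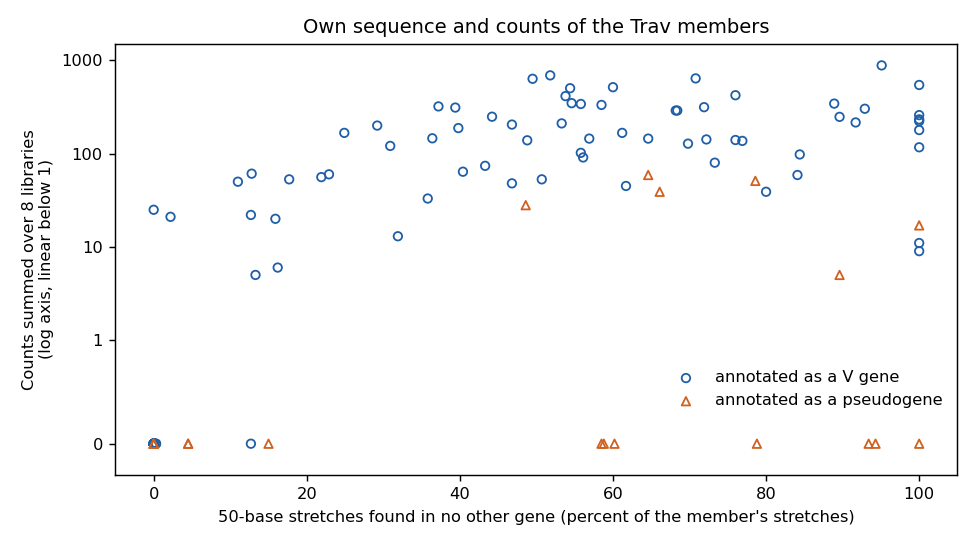
Counts of each of the 128 Trav members summed over 8 libraries (log axis, linear below 1) against the percent of its 50-base stretches found in no other gene. Of the 42 members at 0 percent 41 had 0 counts, and those with 0 counts and more than 50 percent were all annotated pseudogenes (triangles).

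Depth limits what can be said of single members. Trav counts came to between 1121 (WT replicate 1) and 2235 (Furin KO replicate 2) per library, of 11308220 to 21040431 counts in all. A member with 0 counts could hold up to 0.134% to 0.268% of the Trav counts of its library (3 counts of the total, counting error only). Of the 74 members with counts 40 had counts in all 8 libraries. Another 13 had 0 in at least 1 library and at least 20 counts in another. 51 members, holding 94.8% of all Trav counts, passed the filter on low counts and were tested; the other 23 with counts did not.

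Usage was broad. The 12 members with the highest mean share held 45.2% of Trav counts together, and the highest single mean share was 6.22%, where even usage of the 74 members with counts would give 1.35%. The same 12 led when counts were divided by exon length. The last 48 coding bases of the leading members run into CDR3, and capitals mark the codon of the conserved cysteine at which CDR3 starts. They lie at chr14:53554511-53554558 (Trav14-1), chr14:53743658-53743705 (Trav16), chr14:53616867-53616914 (Trav12-2) and chr14:53845780-53845827 (Trav19).
Trav14-1: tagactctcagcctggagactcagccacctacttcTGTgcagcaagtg
Trav16: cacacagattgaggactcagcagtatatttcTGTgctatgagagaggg
Trav12-2: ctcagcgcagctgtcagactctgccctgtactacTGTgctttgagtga
Trav19: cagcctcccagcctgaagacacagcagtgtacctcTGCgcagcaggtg
Each shows a cysteine codon, TGT in the first 3 and TGC in Trav19.

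Trav14-1 (ENSMUSG00000076840, chromosome 14, 53554022 to 53554558) had the highest mean share. It held 2.41%, 5.74% and 6.42% of Trav counts in the WT libraries and 7.11%, 4.65%, 8.30%, 7.42% and 7.73% in the Furin KO libraries, each in replicate order. The Wilson 95% interval was 1.66% to 3.48% for the lowest of these (27 of 1121 counts) and 7.14% to 9.63% for the highest. 4 of the 5 Furin KO libraries lay above all WT libraries and 1 lay below 2 of them, so the groups overlapped. The mean share was 7.04 ± 1.41% (SD, n = 5) in Furin KO and 4.86 ± 2.15% (n = 3) in WT (exact permutation test, two-sided, p = 0.179). With 56 arrangements a one-sided p cannot fall under 0.0179. The two-sided p, which takes the smaller one-sided p 2 times, stays above that.

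Trav16 (ENSMUSG00000076855, chromosome 14, 53743104 to 53743705) had shares of 8.03%, 3.74% and 4.70% in WT and 4.93%, 5.19%, 5.18%, 3.71% and 5.76% in Furin KO. Its copy Trav16n (ENSMUSG00000076822, 53351028 to 53351621) had 6.51%, 5.74% and 5.59% in WT and 2.23%, 4.12%, 6.40%, 3.29% and 3.29% in Furin KO. For Trav16n, 4 of the 5 Furin KO libraries lay below all WT libraries, but Furin KO replicate 3 lay within them (means 3.86 ± 1.57% and 5.95 ± 0.49%, exact permutation p = 0.107). Trav16 differs from Trav16n at 5 of the aligned coding bases and in 3 gap bases, and 51.8% and 49.5% of their stretches are their own. Summed with Trav16d-dv11, the Trav16 copies held 10.8 ± 2.61% in Furin KO and 14.3 ± 2.60% in WT.

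Trav12-2 held 4.19%, 6.42% and 3.11% in WT and 5.15%, 3.40%, 2.33%, 4.23% and 9.54% in Furin KO, of which the last is the highest share of any member in any library. Trav19, which shares no 50-base stretch with another gene, held 3.21%, 3.53% and 2.61% in WT and 5.04%, 4.92%, 3.86%, 3.99% and 3.13% in Furin KO (exact permutation p = 0.107). Its share varied least among the 74 members, with a coefficient of variation of 22.6% over the 8 libraries. In the 9 members with at least 400 counts in all this coefficient ran from 22.6% to 60.0%, with a median of 35.0%.

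Trav13-1 lay at different levels among the Furin KO libraries. Its share was 1.78%, 1.53% and 1.46% in WT and 1.59%, 3.98%, 1.64%, 3.80% and 3.70% in Furin KO. 3 Furin KO libraries stood at 3.70% to 3.98% (replicates 2, 4 and 5) and the other 2 among the WT libraries (exact permutation p = 0.179). This split depends on the copies. Summed with its d and n copies, Trav13-1 held 1.78%, 2.16% and 1.97% in WT. In Furin KO the sums were 2.97%, 4.79%, 1.75%, 3.99% and 4.11%, so replicate 1 then lay above all WT libraries. Replicate 3 then lay just below them. Trav7-5 spread instead within WT, at 0.54%, 1.32% and 4.32%, around Furin KO values of 1.81% to 3.22%. Of the other leading members, Trav3-3, Trav14-2, Trav13-2, Trav14n-3 and Trav5-4 had mean shares of 2.30% to 4.08% in Furin KO and 2.73% to 3.32% in WT.

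**Figure D2:**
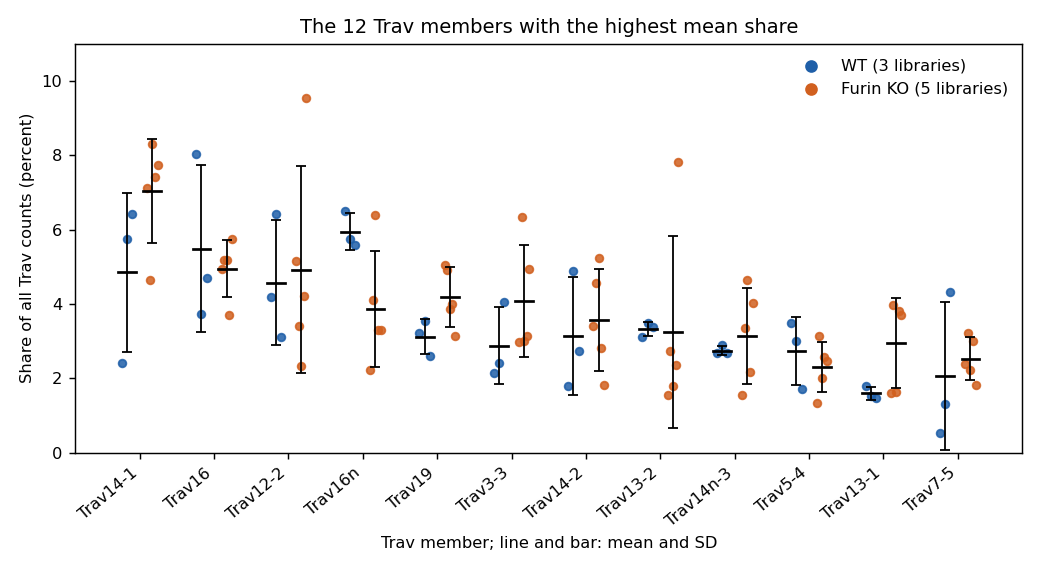
Share of all Trav counts (percent) in each library for the 12 members with the highest mean share, WT in blue (3 libraries) and Furin KO in orange (5 libraries), with mean and SD. The groups overlapped at all 12 members, and Trav12-2 and Trav13-2 each have 1 Furin KO library far above the rest, at 9.54% and 7.81%.

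By family, Trav14 (9 members, 5 with counts) held 15.3 ± 2.70% of Trav counts in Furin KO and 12.8 ± 3.07% in WT, Trav16 (3 members) 10.8 ± 2.61% and 14.3 ± 2.60%, and Trav7 (13 members, 8 with counts) 8.95 ± 2.13% and 9.87 ± 3.73%. Trav12 and Trav6 followed, with mean shares over all libraries of 9.22% and 8.99%. 22 of the 23 families had counts, and the genotypes overlapped in all 22. The exception, Trav22, is a single pseudogene. Over all genes tested, CPM values did not overlap between genotypes in 2.90%, so overlap is not read as particular to the families. The 10 members that carry dv in their symbol, which can also join the delta chain, held 10.4 ± 2.34% in Furin KO and 11.1 ± 3.04% in WT.

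Along the locus, the 64 members nearest the joining segments held most reads, 78.2 ± 3.46% in Furin KO (range 74.7% to 81.7%) and 77.0 ± 0.77% in WT (76.1% to 77.6%). The WT range lay inside the Furin KO range. All 12 leading members were among these 64, of which 45 had counts, against 29 of the 64 farther ones. Own sequence runs along with position: 30 of the 64 farther members had none, and 12 of the nearer. The d block (39 members, 20 with no own sequence) held 8.07 ± 2.60% in Furin KO and 9.93 ± 0.83% in WT, and the n block (34 members, 19 with none) 15.0 ± 1.20% and 15.8 ± 1.70%. Its part in the shares by position was not tested.

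Members with more than 50% own sequence that are not pseudogenes were set beside each other, though their own sequence still differed. In the 8-member stretch farthest from the joining segments, Trav1 to Trav6-2, 7 such members had a median mean share of 1.24% (0.716% to 1.87%). In the 47-member stretch nearest to them, Trav7-2 to Trav23, 24 such members had a median of 2.20% (0.053% to 6.22%), and the 5 of the n block also 2.20%. The 5 of the d block, which lies between the farthest stretch and the n block, had a median of 0.718% (0.544% to 1.20%), so these medians did not follow the order along the locus. Own sequence of these members was 64.6% to 100% in the farthest stretch. It was 55.8% to 76.9% in the d block and 50.7% to 84.1% in the n block. In the nearest stretch it also differed widely, for example 53.3% in Trav9-2 and 95.1% in Trav14-1. The part of own sequence in these medians was not tested. The lowest in the nearest stretch, Trav18, had 9 counts, all in Furin KO replicate 4. Over the 74 members with counts, distance to the first joining segment and mean share had a Spearman rho of -0.19, as a description over members that share libraries.

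**Figure D3:**
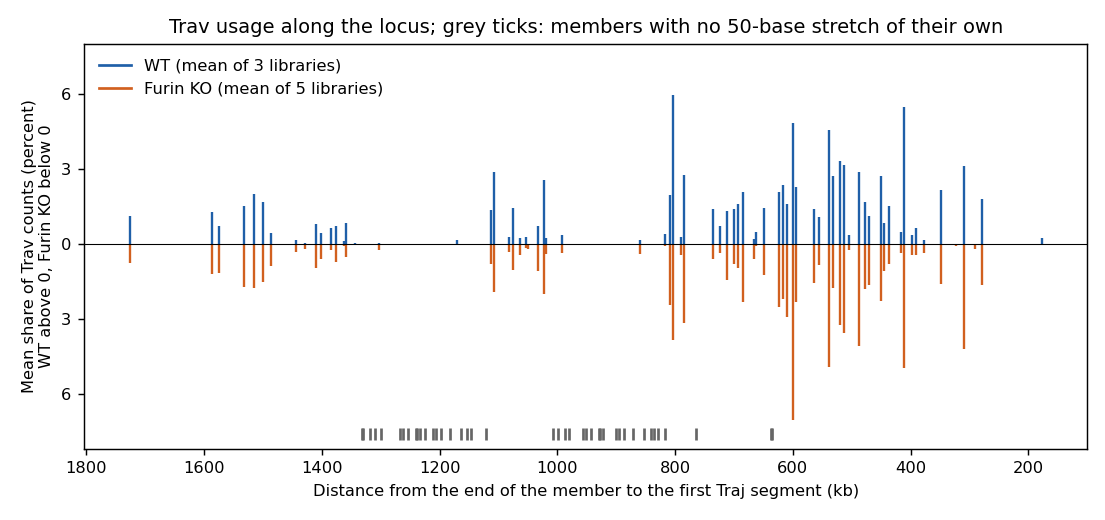
Mean share of Trav counts (percent) of each member against the distance from its end to the first Traj segment (kb), WT upward and Furin KO downward, with grey ticks for the 42 members with no own sequence. The tallest lines lie toward the joining segments in both genotypes, and most ticks stand where lines are few or short.

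The segments of 2 invariant T cell lineages were looked up separately. Trav11 forms the alpha chain of invariant natural killer T cells and Trav1 that of mucosal-associated invariant T cells in mice. Trav11 and its copy Trav11d had 0 counts in every library. Their coding bases have no mismatch, as the last 48 shared bases show (chr14:53519811-53519858 and chr14:52824865-52824912; capitals mark the cysteine codon).
Trav11: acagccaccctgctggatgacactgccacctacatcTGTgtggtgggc
Trav11d: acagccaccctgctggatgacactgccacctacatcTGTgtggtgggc
Neither has own sequence, so their 0 is not read as absence. The third copy, Trav11n, an annotated pseudogene with 78.6% own sequence, had 51 counts. These were 11 in WT replicate 3 and 28, 6 and 6 in Furin KO replicates 1, 2 and 4. Trav1, all of whose stretches are its own, held 1.78%, 0.263% and 1.27% in WT and 0%, 0.626%, 2.38%, 0.235% and 0.658% in Furin KO. Zbtb16, the transcription factor of innate-like T cells, was at 0 to 0.855 CPM and Klrb1c at 0 to 0.450 CPM. The sum of the 7 innate-like markers, 279 to 356 CPM in Furin KO and 302 to 360 CPM in WT, came mostly from Cxcr6 and Klrd1.

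Together the Trav members reached 77.5, 99.1 and 87.8 CPM, here without TMM scaling, in WT and 90.4, 106.7, 101.4, 101.2 and 107.5 in Furin KO, in replicate order. The means were 88.2 ± 10.8 (n = 3) and 101.5 ± 6.82 (n = 5), and the groups overlapped, with WT replicate 2 above Furin KO replicate 1. By the distances of all other counts the libraries were clustered and cut into 3 sets, a number that was given to the clustering. The sets follow the order of the sample titles, and that of WT replicate 1 and Furin KO replicate 1 is the 7-week pair. In the set of WT replicate 1 and Furin KO replicate 1 the values were 77.5 and 90.4. In that of WT replicate 2 they were 99.1 for WT and 104.1 for the mean of Furin KO replicates 2 and 3. In that of WT replicate 3 they were 87.8 and 104.4 for the mean of Furin KO replicates 4 and 5. Per 1000 counts of Trac, the constant gene, there were 80.3 to 93.1 Trav counts in WT and 94.7 to 109.6 in Furin KO, which did not overlap; this ratio was chosen after the values were seen and is given without a test. In bulk RNA, fewer cells with a readable segment and less RNA per cell cannot be told apart.

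The genotypes overlapped in evenness. The Shannon effective number, the number of equally used members that would give the same entropy, was 39.8, 44.6 and 44.7 in WT and 44.3, 42.7, 39.4, 47.2 and 34.3 in Furin KO. The means were 43.1 ± 2.83 (n = 3) and 41.6 ± 4.96 (n = 5), a difference of -1.47 that is smaller than either SD. The inverse Simpson index, which weighs the leading members more, was 34.2 ± 2.43 in WT and 32.2 ± 4.92 in Furin KO. Pielou evenness, entropy over its maximum for 74 members, was 0.874 ± 0.016 and 0.865 ± 0.029. Furin KO replicate 5 was the least even library, with 53.2% of its Trav counts in its 10 leading members against 39.9% to 45.9% in the other 7 libraries. It had 1216 Trav counts, and only WT replicate 1 had fewer, at 1121. The Shannon and Pielou values were not brought to equal depth, and the part of depth in them was not tested. For the Simpson index an unbiased estimator, which allows for the number of counts, was also computed. Its inverse was 35.0 ± 2.38 in WT and 32.7 ± 4.99 in Furin KO. By library it was 25.1 in Furin KO replicate 5, 32.4 in WT replicate 1 and 30.9 to 37.9 over the 7 libraries other than Furin KO replicate 5. Without Furin KO replicate 5 the difference in Pielou evenness was 0.0018 in place of -0.0091, and with copies summed it was 0.0017. Within the 3 library sets Furin KO was higher in the set of WT replicate 1 (0.881 and 0.856) and lower in the other 2 by mean (0.863 and 0.883; 0.858 and 0.883).

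**Figure D4:**
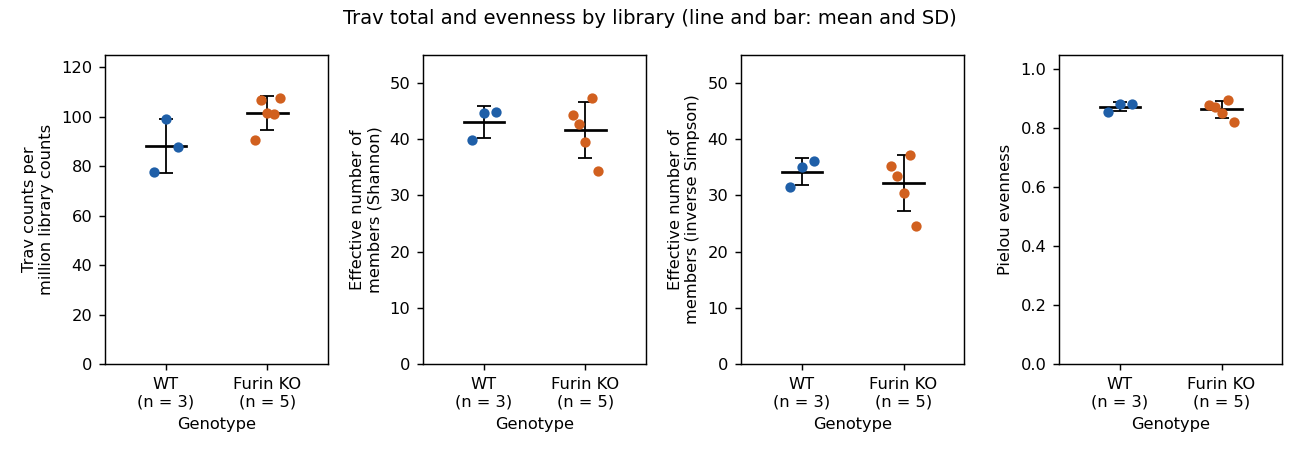
Trav counts as CPM without TMM scaling, effective number of members by Shannon entropy and by the inverse Simpson index, and Pielou evenness (no unit) in each library, with mean and SD by genotype (3 WT, 5 Furin KO). The groups overlap in all 4 panels, and the lowest Furin KO point in the 3 panels on evenness is replicate 5.

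The number of members detected was 57, 61 and 62 in WT and 62, 66, 59, 68 and 58 in Furin KO. Brought to the lowest total of 1121 Trav counts by the hypergeometric expectation, it was 57 to 61.1 in WT and 57.7 to 66.4 in Furin KO. Any pair of libraries had 63.8% to 77.7% of their usage in common (the sum over members of the smaller share). The median was 72.1% for the 15 pairs between genotypes, 71.5% for the 10 pairs within Furin KO and 72.9% for the 3 within WT. The chi-square of Trav counts per degree of freedom was 5.04 to 10.88 over the 28 pairs and at least 5.70 within a genotype, so libraries of 1 genotype differed by more than counting error, for which 1 is the mean. Reads without molecular identifiers are not independent molecules, so intervals here cover counting error only.

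In the fit of all 12500 genes by edgeR (quasi-likelihood, adjusted by Benjamini-Hochberg), 0 of the 51 tested members passed at an adjusted p under 0.05, where 4 genes (0.0320%) did over the whole table. DESeq2 (53 members) and limma-voom (51 members) also called 0. At an unadjusted p under 0.05 there was 1 member, beside 3.21% of all genes. Members whose CPM values did not overlap between genotypes numbered 0 of the 51, beside 2.90% of all genes (1.31% with Furin KO higher and 1.59% with it lower). Members whose shares did not overlap numbered 0 of the 74 with counts, beside 8.56% of all genes tested when divided by the Trav total. That total was higher in Furin KO by mean, and with it as library size the median log2 fold change of all genes was -0.21. The members make up the total and cannot shift against it as a whole, so 8.56% is not a like reference for them. The lowest exact permutation p of a share among the 74 members with counts, not adjusted, was 0.0714.

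The log2 fold changes of the 51 ran from -0.998 (Trav4-2) to 1.93 (Trav9-1), with a median standard error of 0.66 against 0.158 over all genes. 34 lay above 0 and 17 below, with a median of 0.17 beside -0.00 for all genes. With the Trav total as library size, which moves the median of all genes to -0.21, 26 lay above 0 and the median was 0.01. Trav13-1 had the lowest unadjusted p, with 3.04 ± 1.36 CPM in Furin KO and 1.39 ± 0.11 in WT (log2 fold change 1.12, SE 0.50, edgeR adjusted p = 0.9998, unadjusted 0.0388). Trav14-1, the only member with a mean of at least 5 CPM, had 7.13 ± 1.42 and 4.41 ± 2.21 CPM (0.68, SE 0.34, edgeR adjusted p = 0.9998). Without WT replicate 1, its lowest library, this log2 fold change was 0.33, and in the 8-week libraries alone it was 0.355. Trav4-2 and Trav9-1 are named as the ends of the range, after their values were seen.

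**Figure D5:**
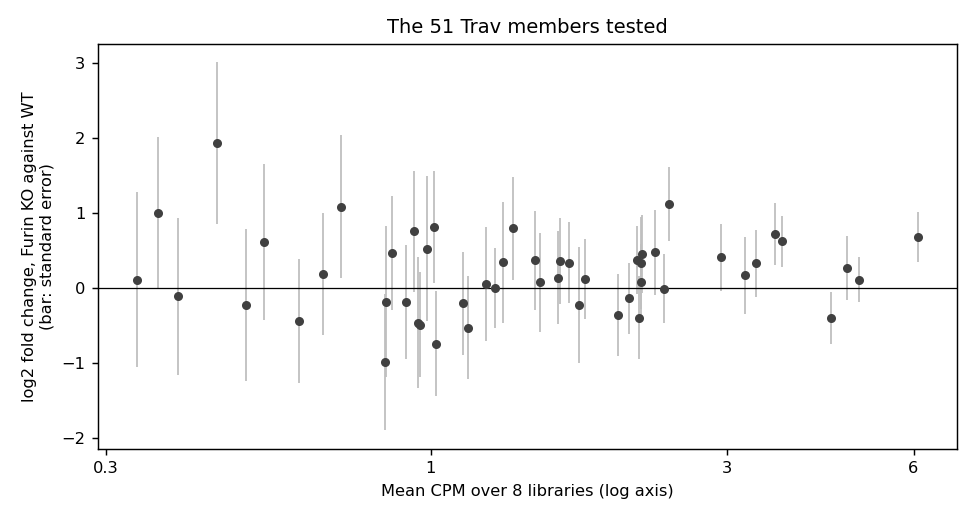
log2 fold change of Furin KO against WT with its standard error for the 51 tested Trav members, against mean CPM over 8 libraries (log axis). Members spread from -0.998 to 1.93, and at edgeR's adjusted p under 0.05 none passed.

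The tagwise biological coefficient of variation, edgeR's estimate of the spread between libraries beyond counting, had a median of 0.55 in the 51 members and 0.155 over all genes. In the 1039 other genes between 0.926 and 2.19 CPM, the middle range of the members, the median was 0.53. edgeR draws these estimates toward those of genes of like level. The nearness of these medians therefore does not show whether the members varied more than other genes.

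Genes that act beside the V segments were read in lists. Of the joining segments, 38 of 60 were tested, 19 lay above and 19 below 0, with a median log2 fold change of -0.01, and 0 passed by edgeR, DESeq2 or limma-voom (1 at an unadjusted p under 0.05). Their summed level was 49.9 to 71.5 CPM in Furin KO and 57.9 to 63.8 CPM in WT. Of the receptor partners, 0 of 7 tested passed by the same tools, and 0 at an unadjusted p under 0.05. Trac was at 1022 ± 77.6 CPM in Furin KO and 1001 ± 56.2 CPM in WT. Of the recombination genes 0 of 13 tested passed in either way. Rag1 and Rag2, which start the rearrangement, had 0 counts in all 8 libraries, and Dntt, which adds bases at the joint, was at 12.4 ± 0.97 and 10.9 ± 1.03 CPM. Of the thymocyte markers 0 of 2 tested passed. Of the 6 delta V segments 2 were tested and 0 passed, and Trdc, the delta constant gene, was at 13.8 ± 1.49 and 11.7 ± 1.52 CPM. Other cell types were scarce: Ms4a1 (B cells), Ncr1 (NK cells) and Csf1r (myeloid cells) had 0 counts, and the B cell, NK cell and myeloid lists summed to at most 1.34, 0.450 and 0.910 CPM. The CD4 and regulatory T cell list summed to 0.440 to 2.52 CPM in Furin KO and 2.19 to 3.36 CPM in WT. Of the naive CD8 list 0 of 9 tested passed, with 1 at an unadjusted p under 0.05 (Il7r, the interleukin-7 receptor, at 558.9 CPM in Furin KO and 685.6 CPM in WT, log2 fold change -0.29), and of the innate-like list 0 of 4, also with 1 (Il18rap, log2 fold change 0.93). Both are named after their values were seen. The naive CD8 list summed to 10770 to 12320 CPM in Furin KO and 10410 to 11960 CPM in WT.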

How the data were processed

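The authors deposited raw whole-number counts per Ensembl gene, 1 column per sample, matched here by title. Per the submitters' processing notes, FastQC, Trim Galore, STAR and DESeq2 1.24.0 were used with GRCm38; counting program, strand setting and treatment of reads matching several genes: not given in the sources used here. GENCODE M21 (GRCm38) matched 55394 IDs and left 179 unmatched. From the counts, edgeR 4.0.16 (limma 3.58.1, R 4.3.3) used TMM factors, filterByExpr and the two-sided quasi-likelihood test of genotype over all genes; a gene passed at adjusted p under 0.05. Shares are percent of all Trav counts of a library. Scores over the members got no p. Members, lists and tests were chosen with earlier results of these data known. Named members are the 12 of highest mean share, up to 4 rises and 4 falls with a mean of at least 5 CPM, and Trav1, Trav11 and Trav11d. On simulated data for 12500 genes of this comparison the test recovered 38.6% of 1.5-fold, 76.4% of 2-fold and 93.0% of 4-fold changes, among genes of at least 1 CPM, with 4 false calls of 147. The changed genes were drawn from all such genes, whatever their level. The tested members lay at 0.336 to 6.11 CPM, with a median standard error of 0.66 against 0.158 over all genes. The recovery rates are therefore not those of the members. Own sequence was computed from GENCODE transcripts with stretches of 50 bases. Recombination signal sequences were not analysed here. Alternatives were other scalings, filters, tools and covariates, summed copies and left-out libraries.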

Additional observations from a re-analysis of the deposited data

Results flagged for a closer look

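In the 5 Furin KO libraries 1 library stood far from the other 4 by Dixon's test in 2 of 25 values examined, where chance gives about 1.25. Trav13-2 held 7.81% of Trav counts in Furin KO replicate 5 and 1.54% to 2.73% in the other 4. Trav1 held 2.38% in Furin KO replicate 3 and 0% to 0.658% in the other 4.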

How the results depend on the processing

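The number of members past the threshold was 0 in all 19 alternatives (edgeR, DESeq2 and limma-voom), with 0 to 5 at an unadjusted p under 0.05. The number whose shares did not overlap was 0 with copies summed or by centred log ratio, and 0 to 5 with 1 library left out: 3 without WT replicate 1, 2 without WT replicate 2, 5 without WT replicate 3, 2 without Furin KO replicate 2, 3 without replicate 3 and 2 without replicate 5; fewer libraries make such gaps easier. No share over all genes stands beside these counts, so they are not read as a result about the members. The difference in total Trav CPM, 13.3, ran from 8.00 to 18.8 with 1 library left out and from 10.8 to 13.4 otherwise. The difference in the Shannon effective number ran from -3.10 to 0.36 and from -3.78 to 0.21, and that in the inverse Simpson index from -3.38 to -0.12 and from -4.12 (8-week libraries alone) to 1.82 (copies summed). The difference in the share of members outside the d and n blocks, 2.65 percentage points, was 0.57 among members with at least 50% own sequence, an alternative chosen after seeing the data. Of the 13 named members with a fold change 8 kept its sign in all 19 alternatives, whereas Trav16, Trav12-2, Trav13-2, Trav5-4 and Trav1 changed it in 1 to 5. No paired analysis by replicate number was possible because the labels carry none that the genotypes share. With the 3 library sets, which were read from the counts, as a factor, 0 members passed by edgeR (1 at an unadjusted p under 0.05, lowest adjusted p 0.8107), where 12 genes did over the whole table. Depth of at most 2235 Trav counts per library limits all single shares.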
